A study of Mus musculus with 28 samples.

Results

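Calorie restriction (CR) in the testis at 24 months was described from 4 of the 28 arrays of the series, chosen as those whose title names testis and an age of 24 months. They hold 2 mice on CR and 2 mice fed ad libitum (AL). The series compares gonads of male and female mice on both diets at several ages, and each array measured RNA of 1 mouse (Cy3) against a common pool of mouse cell line RNA, the Universal Mouse Reference (Cy5). All mice were of the C57BL/6 strain, with no substrain in the labels, each testis value comes from total RNA of the whole organ of 1 animal, and restriction had begun at 14 weeks of age. The AL mice of 24 months were 2 years old (replicate 1) and 2 years and 3 days old (replicate 2). Both CR mice carry 24 months in their titles, while their age label is 22 months and their source name gives 1 year and 10 months, so that diet and this gap in age cannot be told apart. The groups set beside them were AL and CR testes of 16 months and of 6 months, 2 mice each, and AL testes of 1 month, 2 mice, which entered the error. By their source names all 4 mice of 16 months were 1 year and 3 months old, those of 6 months 5 months and 24 days and 6 months (AL) and 5 months and 27 days and 6 months and 6 days (CR), and those of 1 month 1 month and 10 and 14 days. The images of all AL testes and of CR testes at 6 months were extracted on 1 day. Those of CR testes at 16 and 24 months were extracted on another. At 24 months diet and extraction day thus cannot be told apart either. By the study's methods, CR mice were fed each morning, got no food on their last day and were killed before noon. AL mice always had food, so that time since feeding differs with diet as well.

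The adult testis makes sperm in seminiferous tubules, where spermatogonia enter meiosis and mature through round into elongating spermatids beside Sertoli cells, while Leydig cells and macrophages lie between the tubules. Restricting food intake lowers signalling through insulin and insulin-like growth factors, and sirtuins, deacetylases that depend on NAD, and the kinase mTOR are long-studied members of the nutrient-sensing machinery. Germ cells make up most of the organ, so that whole-testis RNA is largely germ cell RNA.

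A value below is the log2 ratio of testis to reference, and a difference is the CR mean minus the AL mean on that scale. Named genes were represented by 1 probe each and unnamed probes stood alone, which gave 38,994 features tested at 24 months, 14,677 of them named genes. A feature was called at a limma false discovery rate of at most 0.1 with a difference of at least 1.5-fold, with the error pooled over 14 testis arrays. Median Cy3 signal over local background was 1.51 and 1.60 on the AL arrays and 1.42 and 1.33 on the CR arrays, and 97.4% and 98.0% of spots on AL and 97.7% and 96.8% on CR were well above background. The difference between the 2 mice of a group had an SD over features of 0.139 in AL and 0.203 in CR, against 0.139 to 0.238 over the 7 testis groups. Over the 38,806 features with a value on all 4 arrays, the mice of the 2 diets did not overlap in 49.1%, and in 50.7% of such named genes, so that a lack of overlap in 1 gene is common. The number of arrays limits the precision.

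The tissue label was checked against cell type markers, with 6 ovary arrays of the same array version for comparison, 1 AL and 1 CR mouse titled 6, 16 and 24 months each. Age labels of 15 and 23 months stand on the AL ovaries titled 16 and 24 months. All 7 measured markers of meiotic germ cells and all 5 of round spermatids lay more than 2-fold above ovary, as did 6 of 7 of elongating spermatids. By the same margin 2 of 3 spermatogonial markers lay above and 1 below, 2 of 9 Sertoli cell markers above and 1 below, and 1 of 6 Leydig cell markers above and 2 below. Of 4 ovary markers 0 lay above and 2 below, with Gdf9 at 0.77 over ovary in testes of 24 months. Protamine 1 (Prm1), which packs sperm DNA, read 6.97 and 6.75 in AL and 6.96 and 7.31 in CR. The lactate dehydrogenase of germ cells, Ldhc, read 5.84 and 5.89 in AL and 6.10 and 6.52 in CR. The arrays thus carried the germ cell RNA that the label implies. Of the Leydig cell markers, the receptor Lhcgr was not well above background on 2 of the 4 arrays. The epididymal gene Adam7 was not well above background on 3 of the 4 arrays, and read −0.11 and 0.02 in AL and 1.10 and −0.12 in CR, so that replicate 1 of CR stood apart.

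Few features were called between CR and AL testes of 24 months, while 14.8% had an unadjusted p under 0.05 at any fold. Srfbp1, Defa29, 1600014C10Rik, Defb14 and Sirt2 were more than 2-fold higher on CR, at 4.11-fold for Srfbp1 and 2.17-fold for Sirt2. Zbtb7a and Zfr were lower, with CR at 0.631 and 0.650 of the AL level. In all, 18 of the 38,994 features were called (0.0462%), 15 higher on CR (0.0385%) and 3 lower (0.00769%). Named genes made up 12 of the 18, with 10 higher (0.0681%) and 2 lower (0.0136%), together 0.0818% of the named genes tested. The other 6 were unnamed probes, of which 5 were higher and 1 lower.

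Srfbp1, a binding partner of serum response factor, read −0.25 and −0.23 in the AL mice and 1.57 and 2.03 in the CR mice. It rose by 2.04 (SE 0.18, limma adjusted p = 0.0158). Both CR mice were far above both AL mice, which sat near the reference pool. 1600014C10Rik, a named transcript, read −0.10 and −0.10 in AL and 1.10 and 1.49 in CR, and rose by 1.39 (SE 0.14, adjusted p = 0.0245). The AL mice were alike, and the CR mice lay apart from them and from each other.

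Sirt2, a sirtuin that acts largely in the cytoplasm, where it deacetylates tubulin among other proteins, read 1.53 and 1.54 in AL and 2.48 and 2.83 in CR. The rise was 1.12 (SE 0.13, adjusted p = 0.0776), with the groups well apart. Defa29 and Defb14 encode defensins, small peptides of epithelial host defence, some of which are made in the male tract, while another, Defb15, had a difference of −0.82 without a call. Defa29 read −0.08 and −0.16 in AL and 1.28 and 2.04 in CR, a rise of 1.78 (SE 0.25, adjusted p = 0.0867). Defb14 read 1.82 and 1.66 in AL and 2.65 and 3.08 in CR, a rise of 1.13 (SE 0.17, adjusted p = 0.0869). Both defensins were high in both CR mice, higher in replicate 2, and low in both AL mice. The epididymis list had a higher summed ratio in both CR mice, as given below, but a higher median level only in replicate 1 of CR. The part of this list in the defensin values was not tested.

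Smaller rises were called for 5 more named genes. Col26a1, a collagen of the extracellular matrix, read 1.40 and 1.33 in AL and 2.02 and 2.39 in CR (difference 0.83, adjusted p = 0.0867). Hoxa4, a homeobox transcription factor made in male germ cells, read 2.29 and 2.17 in AL and 2.89 and 3.21 in CR (difference 0.82, adjusted p = 0.0798). The remaining rises belong to transcripts named only by clone: 4933436H12Rik (0.81), 4933431G14Rik (0.75) and 1700037N05Rik (0.60), with adjusted p from 0.0798 to 0.0896. With the Cy3 channel alone these 3 were not called and came to 0.21, 0.28 and 0.17. In each of these 5 genes both AL mice lay below both CR mice, and the AL mice were closer to each other than the CR mice were. Over all testis mice, Hoxa4 and Col26a1 were lowest in the AL mice of 24 months. At 6 months Hoxa4 read 2.86 and 2.98 in AL and 3.23 and 3.21 in CR, close to the CR mice of 24 months. The 3 transcripts named by clone were highest in the CR mice of 24 months.

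Of the 3 features called lower on CR, 2 were named genes. Zbtb7a, a zinc finger repressor of transcription, read 0.07 and −0.11 in AL and −0.61 and −0.76 in CR, and fell by 0.66 (SE 0.08, adjusted p = 0.0776). Zfr, a zinc finger protein that binds RNA, read 1.98 and 2.12 in AL and 1.56 and 1.30 in CR, and fell by 0.62 (SE 0.09, adjusted p = 0.0869), and kept its call in 6 of 22 alternatives. Both CR mice were below both AL mice for each. Their ranges at other ages were as wide: AL mice of 6 months read −0.73 and −0.68 for Zbtb7a and 1.40 and 1.25 for Zfr, close to the CR mice of 24 months.

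**Figure D1:**
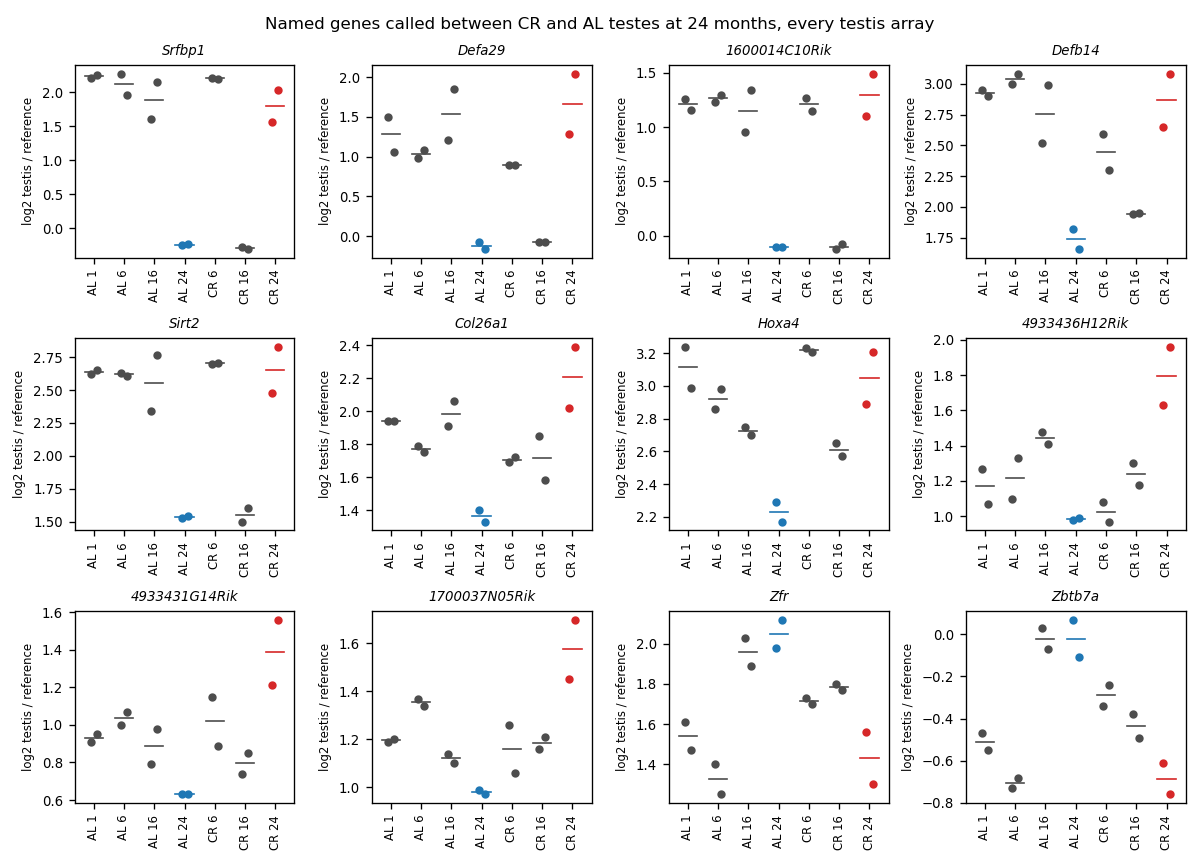
Log2 ratio of testis to reference (vertical axis, a scale of its own in each panel) for the 12 named genes called at 24 months, by diet and age in months; points are mice and bars group means. AL mice of 24 months are blue and CR mice of 24 months red. Srfbp1, Defa29, 1600014C10Rik, Defb14 and Sirt2 are low in CR mice of 16 months as well as in AL mice of 24 months.

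The mice of the 2 diets did not overlap in any of the 18 called features, which were chosen by those same values. In 15 of the 15 that rose and 3 of the 3 that fell, replicate 2 of CR lay further from the AL mice than replicate 1 did. None of the 18 was saturated, and 1, an unnamed probe, was not well above background on an array. Of the 18, 12 were more than 2-fold higher in the 10 testes of other ages than in ovary, against 14.8% of all features tested. With limma and without replicate 1 of CR the count of 18 became 306, of which 173 were named genes, and without replicate 2 it became 8. It became 3 without replicate 1 and 5 without replicate 2 of AL, with 0 named genes in either case (247 and 407 features at an unadjusted p under 0.05 and 1.5-fold). Leaving out an array of the groups that enter only the error gave 5 for AL at 1 month, 11 for AL at 16 months, 11 for CR at 6 months and 4 for CR at 16 months. The signals as processed by the scanner software gave 440 called features and the Cy3 channel alone 8. The deposited values gave 269, with only 24,329 features tested.

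To reach 15 genes in each direction, the genes of lowest unadjusted p that differed by at least 1.5-fold were added, none of which was called. On the higher side these were Lrrc49 (0.77), Ube4bos3 (0.81), Depdc1b (0.67), D6Ertd474e (1.28) and Ttc22 (0.76), with adjusted p of 0.105 to 0.134. Lrrc49, a leucine-rich repeat protein of the complex that adds glutamate chains to tubulin, read 1.88 and 1.89 in AL and 2.50 and 2.80 in CR. D6Ertd474e read 1.32 and 1.47 in AL and 2.56 and 2.78 in CR. In both genes the diets did not overlap, and the CR mice differed more from each other than the AL mice did.

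On the lower side, 13 genes that were not called filled the list, with adjusted p of 0.105 to 0.159. Ankrd26 had a difference of −0.96, Pa2g4 of −0.86 and Defb15 of −0.82. Pa2g4, a protein that binds RNA and regulates growth, read −0.19 and −0.15 in AL and −0.77 and −1.29 in CR. Gnl3, a GTP-binding protein of the nucleolus, read −0.46 and −0.57 in AL and −0.98 and −1.43 in CR. Both were low in the CR mice of 24 months and as low in AL mice of 6 months, at −1.01 and −1.19 for Pa2g4 and −1.25 and −1.09 for Gnl3. Differences of the others were −0.71 for Aff4, a scaffold of the complex that releases paused RNA polymerase, −0.62 for Pfdn1, a subunit of the chaperone prefoldin, −0.59 for Nsf, an ATPase of vesicle fusion, and −0.59 for Tbc1d15, a regulator of Rab proteins. Gm609 (−0.59), 4931408C20Rik (−0.63) and LOC434073 (−0.65) completed the genes of unstated role. Igkc, the constant region of the immunoglobulin kappa chain, read 0.98 and 0.83 in AL and 0.45 and 0.03 in CR (difference −0.67). Its CR mice were below its AL mice at 24 months, whereas at 16 months the CR mice read 0.83 and 1.06 and the AL mice 0.32 and −0.08. Ccn3, a secreted matrix-associated protein, read −3.65 and −3.39 in AL and −4.05 and −4.16 in CR (difference −0.59).

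A further 34 features passed the false discovery rate without reaching 1.5-fold, 25 higher and 9 lower, so that 52 passed at any fold (0.133%). The genes named from among them were chosen after their values were seen. Foxo3, a transcription factor that insulin signalling keeps out of the nucleus, read 0.33 and 0.40 in AL and 0.77 and 0.95 in CR (difference 0.49, adjusted p = 0.0869). Dusp7, a phosphatase of MAP kinases, read −0.53 and −0.52 in AL and −1.0 and −1.02 in CR (difference −0.48, adjusted p = 0.0776). Adgre1, the gene of the macrophage antigen F4/80, read −1.41 and −1.49 in AL and −1.82 and −1.82 in CR (difference −0.37, adjusted p = 0.0945). The mice of each diet were close together for Dusp7 and Adgre1, and the diets did not overlap for any of the 3.

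The size of a difference and its call parted ways for many genes. Over 2-fold between the diets were 51 named genes, 27 higher and 24 lower on CR, of which 5 were called. In 25 of the 51 the AL mice of 16 months also differed from each other by more than 2-fold, in 13 the CR mice of 16 months and in 23 the CR mice of 24 months, against 55, 23 and 55 of all named genes. The mice of the other groups did so in 7 for AL at 6 months, 6 for AL at 1 month and 1 each for AL at 24 and CR at 6 months, against 123, 34, 4 and 6 of all named genes. D130007C19Rik, chosen after its values were seen, had the largest difference of a named gene, at 3.65 (adjusted p = 0.243). It was called when only the 4 arrays of 24 months were fitted (limma adjusted p = 0.00854). It read 0.22 and 0.17 in AL and 3.78 and 3.91 in CR at 24 months, 0.14 and 4.03 in AL and 3.78 and 0.25 in CR at 16 months. Mice of 1 diet and age were thus at either level at 16 months. The same mice, replicate 1 of AL and replicate 2 of CR, were the lower ones for Mob3b, C330013J06Rik, 1700024I08Rik and Cmya5. These genes were also picked after their values were seen. Mob3b read 0.87 and 0.94 in AL at 24 months, and 1.06 and 3.08 in AL and 2.60 and 1.15 in CR at 16 months. Srfbp1 and Defa29, also among the largest differences, did not follow this order. Cap1, a regulator of actin chosen in the same way, read −3.89 and −3.88 in AL and −2.29 and −1.43 in CR at 24 months, with CR mice of 16 months at −2.41 and −3.92. Dapp1, an adaptor of immune cell signalling also chosen after its values were seen, read 2.22 and 2.44 in AL and 1.55 and −1.44 in CR (difference −2.28, adjusted p = 0.305), so that its low mean rested on 1 CR mouse.

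Features at a looser threshold were set against the difference between testis and ovary, taken from the 10 testes of other ages so that the values of 24 months did not enter it. At an unadjusted p under 0.05 with 1.5-fold stood 340 features (0.872%), 138 higher (0.354%) and 202 lower (0.518%), with 73 named genes higher (0.497%) and 99 lower (0.675%). Of the 138, 57.2% were more than 2-fold above ovary in testis and 4.35% more than 2-fold below it. Of the 202, 22.3% were above and 44.6% below. Over all features the shares were 14.8% and 11.6%, and no test of these shares was made. Fewer cells of a type and less RNA per cell of that type cannot be told apart in RNA of a whole organ.

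The question of whether the diet difference was the same at other ages was put to the testes of 16 and of 6 months. Of the 18 called features, 12 had a difference of the opposite sign at 16 months and 13 at 6 months, and 1 had the same sign at both. At 16 months 6 features were called (0.0154%), 4 higher (0.0103%) and 2 lower (0.00513%). At 6 months 2 were called (0.00513%), 1 higher (0.00256%) and 1 lower (0.00256%), both unnamed. The count at 16 months became 20 and 3 without replicates 1 and 2 of AL, and 0 without replicate 1 of CR (limma, 164 at an unadjusted p under 0.05 and 1.5-fold). The count at 6 months became 346 and 5 without replicates 1 and 2 of AL, 4 without replicate 1 of CR or an array of AL at 1 month, and 1 without any array of AL at 24 months or of CR at 16 or 24 months. Across features the difference at 24 months and that at 16 months, which share no array, had a Pearson r of −0.114 and a Spearman rho of 0.0578 (38,964 features, which are not independent replicates), 1 of 3 such pairs of ages computed. With 24 and 6 months r was −0.0193 and rho −0.0315, and with 16 and 6 months r was 0.0587 and rho 0.0366.

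The difference at 24 months was then set against that at 16 months in 1 contrast, in which a shift added to both CR groups by the extraction day cancels. For this difference of differences, 13 features were called (0.0334%), 11 in the direction of higher at 24 months (0.0282%) and 2 in the other (0.00513%), and 8 of the 13 were named genes. It shares its 24-month arrays with the comparison above and is given as values for the same genes, not as independent support. Srfbp1 had the largest, at 4.20 (SE 0.25, limma adjusted p = 0.00104). Its values ran the other way at 16 months, 1.61 and 2.15 in AL and −0.27 and −0.30 in CR. Across all ages, Srfbp1 was near the reference in AL mice of 24 months and CR mice of 16 months and at 1.57 or above in the other testis mice.

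Defa29 (3.39, adjusted p = 0.0311) read 1.21 and 1.85 in AL and −0.08 and −0.08 in CR at 16 months. 1600014C10Rik (2.65, adjusted p = 0.00175) read 0.96 and 1.34 in AL and −0.12 and −0.08 in CR at that age. Sirt2 (2.12, adjusted p = 0.00815) read 2.34 and 2.77 in AL and 1.5 and 1.60 in CR. For all 3 genes the diet that was low at 24 months was the high one at 16 months. Defb14 (1.94, adjusted p = 0.0564) read 2.52 and 2.99 in AL and 1.94 and 1.95 in CR at 16 months, the same reversal. At 6 months Sirt2 read 2.63 and 2.61 in AL and 2.70 and 2.71 in CR, with all 4 mice between the CR mice of 24 months.

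The other genes called for this contrast were Depdc1b (1.30, adjusted p = 0.0677), Shkbp1 (0.93, adjusted p = 0.0489) and, in the other direction, Defb15 (−1.75, adjusted p = 0.0677). Shkbp1, a binding partner of an adaptor of receptor endocytosis, read 0.31 and 0.44 in AL and 0.88 and 1.04 in CR at 24 months. At 16 months it read 0.72 and 0.75 in AL and 0.41 and 0.37 in CR. Defb15, a beta-defensin, read 0.93 and 1.05 in AL and 0.44 and −0.10 in CR at 24 months, and 0.37 and 0.00 in AL and 1.14 and 1.09 in CR at 16 months. Its order between the diets was the opposite of that of Defa29 and Defb14 at both ages. Leaving out replicate 1 of CR at 24 months raised the 13 to 251. The count was 39 without replicate 1 of AL at 16 months and 20 without an array of CR at 6 months. It was 5 without an array of AL at 1 month, 5 and 8 without replicates 1 and 2 of AL at 24 months, and 7 and 6 without those of CR at 16 months.

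Within 1 extraction day, CR mice of 24 months were compared with CR mice of 16 months, and AL mice of 24 months with AL mice of 16 months. On CR, 3 features were called, all higher at 24 months (0.00769%, with 0 lower): Srfbp1 by 2.09 (adjusted p = 0.0129), 1600014C10Rik by 1.40 (adjusted p = 0.0235) and 1 unnamed probe. On AL, 2 were called, both lower (0.00513%, with 0 higher): Srfbp1 by −2.12 (adjusted p = 0.0225) and 1600014C10Rik by −1.25 (adjusted p = 0.0950). The contrast of Sirt2 was 1.10 on CR (adjusted p = 0.120) and −1.02 on AL (adjusted p = 0.222), neither of which was called. Srfbp1 and 1600014C10Rik thus differed between ages among arrays extracted on the same day, on both diets. The 3 called on CR became 68 without replicate 1 and 7 without replicate 2 of CR at 24 months, 1 and 6 without those of CR at 16 months, and 5 without an array of AL at 16 months or of CR at 6 months. The 2 called on AL became 13 without replicate 1 and 5 without replicate 2 of AL at 16 months, 5 without replicate 2 of AL or either CR array at 24 months, 1 without replicate 1 of AL at 24 months or an array of AL at 1 or 6 months, and 0 without an array of CR at 16 months (limma, 146 at an unadjusted p under 0.05 and 1.5-fold).

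The contrast of the diet difference at 24 months with that at 6 months called 22 features (0.0565%), 9 in the direction of higher at 24 months (0.0231%) and 13 in the other (0.0334%). Pa2g4, with −1.74 (adjusted p = 0.0881), read −0.77 and −1.29 in CR at 24 months and −0.30 and −0.14 in CR at 6 months, while AL mice read −0.19 and −0.15 at 24 months and −1.01 and −1.19 at 6 months. Zbtb7a, with −1.08, and Zfr, with −1.01, were called as well (adjusted p = 0.0881 for both). For these 3 genes, as for all 8 named genes called in that direction, CR was the lower diet at 24 months and the higher one at 6 months. In the other direction 7 named genes were called: Srfbp1 (1.94), Defb14 (1.73), 1600014C10Rik (1.45), Ube4bos3 (1.41), Il31 (1.00), 1700037N05Rik (0.79) and Rbp7 (0.77), with adjusted p from 0.0881 to 0.0999. Srfbp1 and 1600014C10Rik had diet differences near 0 at 6 months (0.09 and −0.06), and Defb14 one of −0.60. By limma the count was 659 without replicate 1 of CR at 24 months, and 0 without replicate 2 of CR at 24 months, without replicate 2 of CR at 6 months or without an array of CR at 16 months (447, 719 and 678 at an unadjusted p under 0.05 and 1.5-fold). It was 75 without an array of AL at 1 month, 96 and 10 without replicates 1 and 2 of AL at 6 months, 5 without an array of AL at 16 months, and 1 and 5 without those of AL at 24 months.

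**Figure D2:**
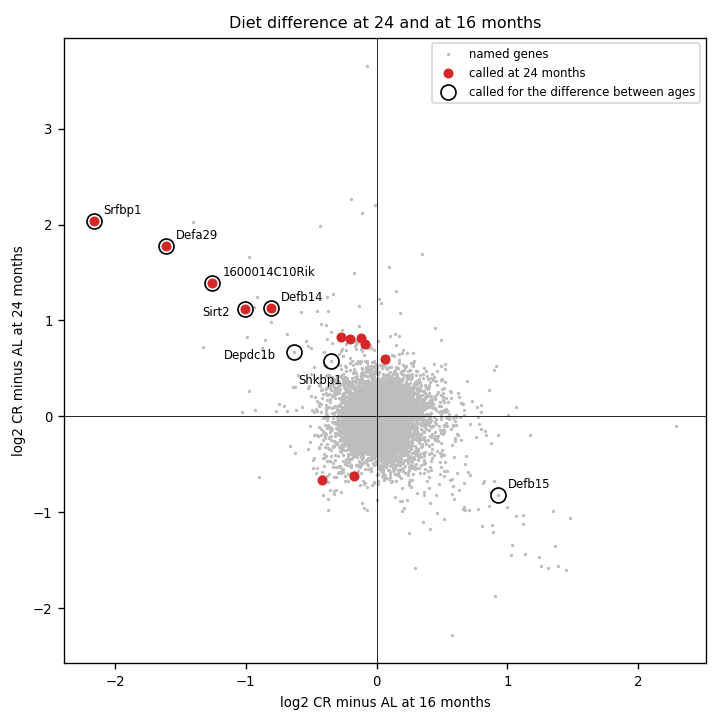
Diet difference (log2 CR minus AL) at 16 months (horizontal axis) and at 24 months (vertical axis) for named genes; grey points are genes, red points the 12 called at 24 months, and rings the 8 called for the difference between these ages. Srfbp1, Defa29, 1600014C10Rik, Sirt2 and Defb14 lie at the upper left, higher on CR at 24 months and lower on CR at 16 months, and Defb15 lies at the lower right.

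Some of the genes called for the contrast of 24 with 16 months lie on the same chromosome, though not side by side. Sirt2, Shkbp1 and 1600014C10Rik are on chromosome 7, with 51 protein-coding genes in RefSeq between Sirt2 and Shkbp1 and 164 between Sirt2 and 1600014C10Rik. Defa29, Defb14 and Defb15 are on chromosome 8, with 30 such genes between Defa29 and Defb14 and 21 between Defa29 and Defb15. Srfbp1 and Depdc1b are not placed here, and no share of all tested genes on these chromosomes is set beside this. Promoter sequences from RefSeq (build GRCm38.p6, 300 bases around each start) were matched by symbol for 6 of the 12 called named genes. Those of Sirt2 and 1600014C10Rik are shown, with that of Shkbp1, which is not among the 12, because these genes switched order between the diets together, and that of Zbtb7a as a gene that fell. Both strands were searched for short motifs. The letters of the GC box, GGGCGG, occur in 35.7% of the 32,851 promoters of the table. The letters CCAAT of the box of that name occur in 37.4%. Those of the TATA box, TATAAA, occur in 13.6% of them. The palindrome TGACGTCA, to which factors of the cyclic AMP response bind, occurs in 1.79%. Sirt2 (chr7:28766502-28766801, plus strand, 50% G and C) holds 1 GGGCGG and 2 CCAAT. 1600014C10Rik (chr7:38182967-38183266, plus strand, the first of 2 starts, 54.3% G and C) holds 1 and 2 as well. Shkbp1 (chr7:27355959-27356258, minus strand, 56.3% G and C) holds 0 and 2, and Zbtb7a (chr10:81136021-81136320, plus strand, 77.7% G and C) holds 6 and 0, some of which share bases. The TATA box letters and the palindrome are in none of the 4 windows. The letters are a description of these windows, capitals mark the matches, and each sequence runs 5′ to 3′ on the strand of its gene.
Sirt2: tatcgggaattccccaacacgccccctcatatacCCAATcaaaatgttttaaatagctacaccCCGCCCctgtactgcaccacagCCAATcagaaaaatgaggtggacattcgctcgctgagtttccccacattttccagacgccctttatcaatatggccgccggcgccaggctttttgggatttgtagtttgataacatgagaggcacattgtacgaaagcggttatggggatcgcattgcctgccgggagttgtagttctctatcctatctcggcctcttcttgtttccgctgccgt
1600014C10Rik: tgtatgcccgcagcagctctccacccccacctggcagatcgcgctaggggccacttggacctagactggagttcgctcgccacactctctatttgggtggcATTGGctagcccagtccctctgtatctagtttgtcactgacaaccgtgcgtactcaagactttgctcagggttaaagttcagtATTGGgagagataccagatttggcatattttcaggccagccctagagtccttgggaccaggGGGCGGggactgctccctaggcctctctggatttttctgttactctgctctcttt
Shkbp1: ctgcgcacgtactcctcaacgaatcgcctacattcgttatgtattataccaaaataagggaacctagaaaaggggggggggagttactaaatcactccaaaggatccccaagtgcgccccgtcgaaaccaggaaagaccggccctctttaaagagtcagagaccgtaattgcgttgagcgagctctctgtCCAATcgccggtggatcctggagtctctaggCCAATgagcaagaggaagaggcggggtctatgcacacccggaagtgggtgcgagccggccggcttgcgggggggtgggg
Zbtb7a: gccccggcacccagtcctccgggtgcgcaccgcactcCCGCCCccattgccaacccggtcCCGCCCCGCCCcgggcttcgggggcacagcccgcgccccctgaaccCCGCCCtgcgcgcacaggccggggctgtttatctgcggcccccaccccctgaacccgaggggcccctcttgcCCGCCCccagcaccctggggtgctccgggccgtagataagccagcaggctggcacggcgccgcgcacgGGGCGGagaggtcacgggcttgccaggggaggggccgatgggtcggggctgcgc

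Groups of genes were described by how many of their measured members were higher or lower on CR and by their median, beside the same for all 14,677 named genes. Of those, 6878 were higher and 7799 lower, with a median of −0.011. An unadjusted p under 0.05 was reached by 1191 on the higher side (8.11%) and 1224 on the lower side (8.34%). Of the 37 gene lists, 24 had a median under that of all named genes, and list medians ran from −0.26 to 0.31. Only the lists of insulin, insulin-like growth factor (IGF), sirtuin and mTOR genes, of collagen and matrix genes, and of ion transport genes held a called member. The called member of the collagen list and of the ion transport list was the same gene, Col26a1.

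The nutrient-sensing list of insulin, IGF, sirtuin and mTOR genes had 25 measured members, 14 higher and 11 lower, with a median of 0.053 (0.013 to 0.12 over the alternatives). Sirt2 was its 1 called member. At an unadjusted p under 0.05 were 4 members on the higher side and 1 on the lower. Mtor, the kinase of the list's name, chosen here after its values were seen, read 2.48 and 2.57 in AL and 3.04 and 3.12 in CR (difference 0.55, adjusted p = 0.129). Insr, the insulin receptor, also chosen after its values were seen, read 0.65 and 0.69 in AL and 0.94 and 0.94 in CR (difference 0.27, adjusted p = 0.224). Both were higher in both CR mice than in either AL mouse without being called. Among the brightest members, the mitochondrial sirtuin Sirt3 had a difference of 0.07, the coactivator Ppargc1a of −0.05 and the binding protein Igfbp7 of −0.40 (adjusted p = 0.453), all without a call. The summed ratio of the list was 35.0 and 34.8 in AL and 41.6 and 42.1 in CR. Without Sirt2 and Mtor it was 26.5 and 25.9 in AL and 27.8 and 26.3 in CR. The median level over members was 0.05 and 0.10 in AL and −0.04 and 0.10 in CR, so that the higher sum rested mostly on those 2 genes. Values of macrophage and fat cell genes are given next, and their part in these differences was not tested.

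Macrophage genes were mostly lower on CR. Of 28 measured members 20 were lower and 8 higher, with a median of −0.19 (−0.29 to −0.065 over the alternatives). None of the 28 was called by limma, and 11 (39.3%) had an unadjusted p under 0.05 on the lower side and 0 on the higher side. Csf1r, the receptor that macrophages need for survival, read −1.09 and −1.20 in AL and −1.39 and −1.31 in CR (difference −0.21, adjusted p = 0.286). Aif1, Tyrobp and C1qa, the other bright members, showed differences of 0.02, 0.03 and 0.03. These near-equal means did not hold in every alternative: C1qa ran from −0.21 to 0.28 with 1 mouse left out, and Tyrobp came to −0.46 with the probe of lowest p. C1qc, a complement subunit made by macrophages and chosen after its values were seen, read 2.84 and 2.39 in AL and 2.12 and 1.58 in CR (difference −0.77, adjusted p = 0.261). The summed ratio of the list was 55.9 and 47.0 in AL and 46.4 and 46.7 in CR, so that the highest value was that of replicate 1 of AL. All its measured members were well above background. At 16 months the median was 0.047 and at 6 months −0.11.

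Apart from interleukins and their receptors, the immune response lists also had a median difference below 0. Of 38 interferon response genes 28 were lower and 10 higher, with a median of −0.14 (−0.21 to −0.070), 0 called by limma, and 10 lower (26.3%) and 1 higher at an unadjusted p under 0.05. Its bright members Ifitm3, B2m, Irf9 and Gbp2b had differences of −0.16, −0.25, −0.29 and −0.13. Toll-like and C-type lectin receptors (34 members, median −0.046), complement (22, −0.067), and T, B and mast cell genes (19, −0.034) had 0 called by limma, with 5, 3 and 1 lower and 0, 1 and 1 higher at an unadjusted p under 0.05. Over the alternatives these medians ran from −0.106 to −0.0448, from −0.143 to −0.0305 and from −0.0754 to −0.0103. The median of the last list came to 0.0035 above that of all named genes in 1 alternative. Chemokines (30, −0.012) and MHC genes (26, −0.030) changed sign among the alternatives, also with 0 called and 2 and 3 members at that p on each side. Interleukins and their receptors (69 members, 42 higher) had a median of 0.021, which came to 0.0020 without replicate 2 of CR and to 0.0113 below that of all named genes with the Cy3 channel alone, with 0 called and 8 higher and 2 lower at that p. Il31, a cytokine otherwise known from T cells, read 3.87 and 3.67 in AL and 4.22 and 4.40 in CR (difference 0.54, adjusted p = 0.0896, under 1.5-fold; 0.011 with the Cy3 channel alone). The macrophage list moved with the interferon list, and its part was not tested.

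The meiotic and spermatid lists had more members higher than lower on CR, and the spermatogonial list the reverse, without a call in any. Meiotic genes had 17 of 26 higher with a median of 0.057 (0.027 to 0.11), and elongating spermatid genes 16 of 20 with 0.088 (0.00044 to 0.15). With the Cy3 channel alone the latter median lay 0.0194 below that of all named genes, and the median level over its members was 3.58 and 3.56 in AL and 3.53 and 3.55 in CR. Round spermatid genes had 15 of 19 higher with a median of 0.070, which turned to −0.020 in 1 alternative. By limma 0 members were called in any of them, and 3, 2 and 1 were higher and 2, 1 and 1 lower at an unadjusted p under 0.05. Tnp1, a transition protein of condensing spermatids, read 2.09 and 1.81 in AL and 2.14 and 2.39 in CR, and Pgk2, a glycolytic enzyme of germ cells, 4.27 and 4.11 in AL and 4.24 and 4.32 in CR. The diets overlapped for Pgk2 and not for Tnp1. The summed ratios of elongating spermatid genes were 411 and 384 in AL and 417 and 440 in CR. Spermatogonial genes (12 members, 8 lower, median −0.041), in which Dmrt1 had −0.38 and Stra8 0.08, changed sign among the alternatives. The Y chromosome list (11, 10 of them lower and 1 higher, median −0.053) did so too, with differences of −0.06 for Ssty1, −0.05 for Ssty2, −0.26 for Eif2s3y and −0.18 for Zfy2, and both lists had 0 called, with 1 spermatogonial gene higher and 1 Y gene lower at an unadjusted p under 0.05.

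Somatic cell lists had medians near 0. Leydig cell and steroidogenesis genes had 10 of 15 lower, a median of −0.062 that turned to 0.0018 without replicate 2 of CR, and 0 members called by limma or at an unadjusted p under 0.05. Cyp17a1, an enzyme of androgen synthesis, read 2.53 and 2.49 in AL and 2.87 and 2.73 in CR (difference 0.29, adjusted p = 0.563). Sertoli cell genes (22 members, median −0.020) moved from −0.20 without replicate 2 of AL to 0.081 without replicate 1 of AL, with 0 called and 1 on each side at an unadjusted p under 0.05. The 1 lower was Ctsl, a lysosomal protease, at −0.43 and −1.12 in AL and −1.54 and −2.16 in CR (difference −1.07, adjusted p = 0.291). Endothelium and smooth muscle (12, median −0.024), blood cells (4, −0.051) and epididymis (11, 0.028) had 0 called, and 2, 1 and 2 members higher and 1, 2 and 0 lower at an unadjusted p under 0.05. The medians of the first and the last changed sign among the alternatives, and that of blood cells came to 0.0048 above that of all named genes without replicate 1 of CR. In the epididymis list 8 of 11 were higher, Lcn10 was the brightest member, and the summed ratio was 11.4 and 11.0 in AL and 13.7 and 12.2 in CR. The median level over members was −0.11 and −0.11 in AL and 0.01 and −0.12 in CR. Eppin, the member with the highest ratio, read 1.18 and 0.97 in AL and 1.28 and 1.58 in CR. Rnase9, a gene of the epididymis, read −0.14 and −0.24 in AL and 0.81 and −0.27 in CR (difference 0.46, adjusted p = 0.434), and was called without replicate 2 of CR (adjusted p = 0.0231). Of the 4 mice it was thus high only in the one in which Adam7 was high.

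Fat cell genes were higher on CR in 14 of 15 members, with a median of 0.091 (0.072 to 0.21) and 0 members called by limma or at an unadjusted p under 0.05. Fabp4, the fatty acid binding protein of fat cells, read −1.38 and 0.63 in AL and 0.89 and −0.20 in CR. Adipoq, a hormone of fat cells, read 3.26 and 3.22 in AL and 3.41 and 3.41 in CR. The diets overlapped for Fabp4, and for Adipoq the difference was 0.17 (adjusted p = 0.561). Summed ratios of the list were 40.3 and 44.1 in AL and 52.5 and 44.4 in CR, with the highest value in replicate 1 of CR.

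In the lists of protein synthesis and breakdown, more members had a lower than a higher mean on CR. Cytosolic ribosomal proteins had 60 of 65 lower, with a median of −0.15 (−0.26 to −0.062), 0 called by limma, and 8 lower and 0 higher at an unadjusted p under 0.05. Rps14 read 0.82 and 0.65 in AL and 0.56 and 0.42 in CR (difference −0.24), and Rps29 1.07 and 0.80 in AL and 0.83 and 0.96 in CR (difference −0.04). The former separated the diets and the latter did not. Proteasome subunits had 30 of 43 lower, with a median of −0.13, 0 called by limma, and 12 lower (27.9%) and 1 higher at an unadjusted p under 0.05. The proteasome median was −0.23 without replicate 1 of CR and −0.021 without replicate 2 of CR. Its level by array, the median log2 ratio over members, was 0.07 and 0.03 in AL and 0.10 and −0.24 in CR, so that replicate 2 of CR was the low one. The summed ratio of the proteasome was 80.3 and 72.0 in AL and 87.5 and 75.8 in CR, which was not lower on CR. Psma6, the brightest subunit, read 2.08 and 1.89 in AL and 1.85 and 1.62 in CR (difference −0.25, adjusted p = 0.339). Mitochondrial ribosomal proteins had 48 of 67 lower and a median of −0.083, which came to 0.014 in 1 alternative, with 0 called and 9 lower and 7 higher at that p.

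Several energy and stress lists also had more members lower than higher. Electron transport genes had 57 of 74 lower with a median of −0.086 (−0.13 to −0.020), 0 called by limma and 5 lower and 3 higher at an unadjusted p under 0.05. Cox8c, a cytochrome oxidase subunit of the testis, read 6.02 and 5.33 in AL and 5.91 and 6.22 in CR, with the diets overlapping. Antioxidant genes had 31 of 48 lower, with a median of −0.097 (−0.16 to −0.027), and fasting and glucocorticoid response genes 16 of 24 with −0.091 (−0.11 to −0.0145). Sterol and fatty acid synthesis genes had 16 of 24 lower with −0.084 (−0.13 to −0.0016) and clock genes 11 of 18 with −0.063 (−0.15 to −0.012). The medians of these 4 lists were nearest to 0 with the Cy3 channel alone. The lists had 0 called by limma, and had 4, 1, 4 and 3 lower and 4, 3, 1 and 1 higher members at an unadjusted p under 0.05. Txnip, a glucose-responsive inhibitor of thioredoxin in the fasting list, read −0.55 and −0.44 in AL and −0.99 and −0.93 in CR (difference −0.47, adjusted p = 0.278). Cpt1b and Foxo3, members of the same list, were higher on CR, by 0.66 and 0.49, without a call. Time since feeding differed with diet, as given above, and its part in this list was not tested. Immediate early genes had 18 of 25 lower with a median of −0.16, which turned to 0.0097 with the Cy3 channel alone, 0 called by limma, and 5 lower and 1 higher at that p. Jund, of the AP-1 family, read −0.88 and −1.15 in AL and −1.47 and −1.33 in CR (difference −0.39, adjusted p = 0.278). Heat shock and J proteins (72, median 0.019), ion channels (170, 0.013) and solute carriers (267, 0.0047) changed sign among the alternatives, had 0 called by limma, and had 5, 15 and 18 higher and 2, 7 and 21 lower members at that p.

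Collagen and matrix genes had 40 of 61 higher on CR, with a median of 0.038 that turned to −0.0014 in 1 alternative. Col26a1 was called, and 10 members were higher (that gene among them) and 1 lower at an unadjusted p under 0.05. Col16a1, a collagen that associates with fibrils, read 0.41 and 0.64 in AL and 1.78 and 2.60 in CR (difference 1.67, adjusted p = 0.189). It stood at 1.90 and 2.49 in AL and 1.89 and 0.55 in CR at 16 months, so that mice of the same group differed. Col22a1 read 3.76 and 3.92 in AL and 4.13 and 4.34 in CR (difference 0.39, adjusted p = 0.242).

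The 4 brightest members of each list, named by signal and not by change, included 1 called gene, Sirt2. In the spermatid lists they were all a little higher on CR, by 0.28 for Prm1, 0.32 for Tnp1, 0.18 for Prm2 and 0.16 for Prm3, and by 0.19 for Spaca1, 0.07 for Tssk2, 0.03 for Tekt1 and 0.03 for Spa17. The last 4 changed sign among the alternatives, and with the Cy3 channel alone Prm1 and Tnp1 came to 0.013 and 0.025. The bright meiotic genes had 0.44 (Ldhc), 0.09 (Pgk2), 0.06 (Syce1) and 0.02 (Mael), and of the spermatogonial ones Uchl1 had 0.09 and Dazl −0.08. Over the alternatives Ldhc ran from 0.0073 to 0.66 and Pgk2 from 0.0055 to 0.17, and Mael, Uchl1 and Dazl changed sign. Bright heat shock genes had 0.19 (Dnajb3), 0.15 (Dnajb14), 0.08 (Dnajb8) and 0.06 (Hsp90aa1). The SD of the difference over all features was 0.182, and none of these genes was called.

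In the steroidogenic list Hsd3b6 had −0.05, the lipoprotein receptor Scarb1 −0.08 and the sulfotransferase Sult1e1 −0.17. Of Sertoli cell genes Amhr2, the receptor of anti-Müllerian hormone, had 0.04, Cst9 0.13 and Clu −0.16. In the vascular list the actin Actg2 read 2.90 and 2.72 in AL and 3.04 and 3.15 in CR (difference 0.28, adjusted p = 0.243), and Esam had −0.12, Tagln −0.09 and Cnn1 0.01. The neutrophil proteins S100a8 and S100a9 had −0.17 and −0.23 in the blood cell list, and the red cell genes Slc4a1 and Epb42 0.10 and 0.07. Epididymal Eppin had 0.35, Lcn10 0.02, Lcn9 0.0054 and Adam28 −0.0077. Fat cell genes had 0.27 (Car3), 0.09 (Cidea) and 0.08 (Pnpla2).

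Among bright immune genes, differences were −0.09 for Cd3e, −0.13 for Cd3d, −0.12 for Ms4a1 and 0.02 for Cd4, and −0.39 for complement C3, −0.08 for C2 and 0.02 for Masp1. Chemokines Ccl21b, Ccl21a and Ccl27a had 0.37, 0.16 and 0.04, and Clec10a, Clec2m, Clec11a and Clec4n 0.31, 0.05, 0.03 and −0.06. The MHC genes H2-Q8, H2-M2, H2-M1 and H2-M11 had 0.19, 0.13, 0.05 and −0.0084. Of the bright interleukin genes, the receptor Il11ra1 had 0.37, Il17d 0.34 and Il11 0.08. None of these was called, and their adjusted p ran from 0.224 for Il11ra1 upward.

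The bright metabolic genes were spread on both sides. Fdft1, which makes squalene, read 3.19 and 3.17 in AL and 3.46 and 3.42 in CR (difference 0.26, adjusted p = 0.311), while Fdps had −0.12, Insig2 −0.21 and Ebp −0.13. The clock genes Per1 and Usp2 had 0.20 and 0.08, Dbp −0.25 and Cry1 −0.0004. Ucp2 had −0.27, and the metallothioneins Mt1 and Mt2 0.08 and −0.05. The glutathione transferases Gstm5, Gstm1 and Gstt4 had 0.47, −0.28 and 0.02. Of the transcription factors of the immediate early list Klf4 had 0.44 and Klf2 0.13, against the lower median of their list, and Gadd45g had 0.02. Matrix genes Sparc and Col20a1 had −0.17 and 0.11.

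Ribosomal Rplp0 and Rps20 had −0.11 and −0.13, and mitochondrial Mrpl54, Mrpl11, Mrpl20 and Mrpl39 0.25, 0.15, −0.07 and −0.09. Proteasomal Psmf1, Psmc2 and Psmb5 had 0.09, 0.02 and −0.03. Respiratory Cox6a1, Ndufb8 and Atp5e had −0.09, −0.14 and −0.17. The bright members of these lists thus lay on both sides of 0 for the proteasome and the mitochondrial ribosome, and on the lower side for the cytosolic ribosome. The ion channel genes Kcnmb4, Kcnk4, Catsper2 and Trpc4ap had 0.08, 0.08, 0.0016 and −0.09, and the carriers Slc16a7, Slc22a16 and Slc25a3 0.19, 0.12 and −0.17. Slc9c1, another carrier of the list, had no value on the CR arrays and was not tested.

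**Figure D3:**
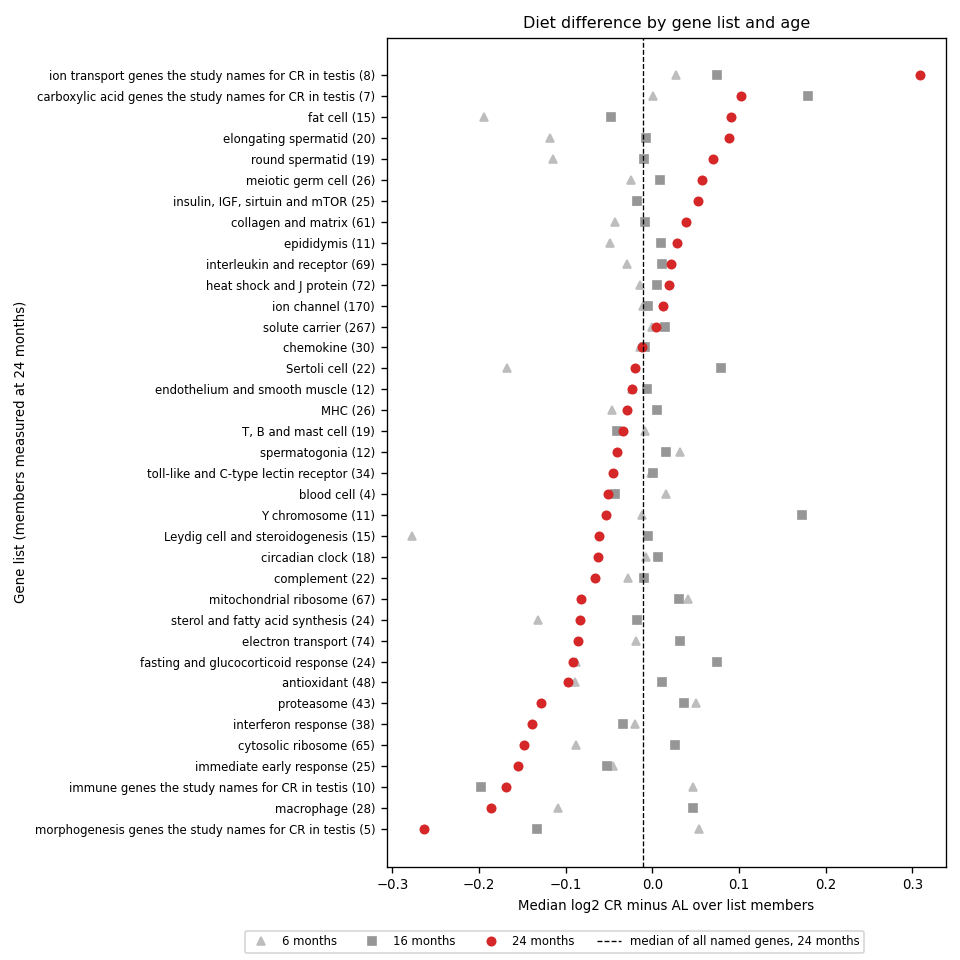
Median diet difference (log2 CR minus AL) over the measured members of each of the 37 gene lists, with the number measured in brackets, at 24 months (red circles), 16 months (squares) and 6 months (triangles). At 24 months the medians run from −0.26 for the study's morphogenesis genes to 0.31 for its ion transport genes, and the dashed line marks −0.011, the median of all named genes; 15 lists, among them immediate early and mitochondrial ribosome, do not keep their sign over the alternatives.

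The last 4 lists hold genes that the study itself picked for CR in testis from these samples, and so give no separate support for a direction. The study took them from diet responses within single ages, describes the suppressed ones as suppressed at various ages, and its text gives no age for each gene. The values below are of the oldest age only. A small or uncalled difference there thus does not test what the study reported for that gene. Of the 10 immune genes 8 were lower and 2 higher on CR (median −0.17; −0.068 without replicate 1 of AL and −0.62 with the signals as processed by the scanner software), with 0 called by limma and 5 lower and 0 higher at an unadjusted p under 0.05. Ccl11, Clec7a, Cxcl5 and Gbp4 were each called in 2 alternatives, the scanner-processed signals and the deposited values. For 98% of probes compared, these 2 hold the same ratio up to a constant of the probe, so that they are not separate processings. None of the 4 genes was called with a single array left out. Over the alternatives Ccl11 ran to −1.9 and Gbp4 to −0.73. Cxcl5, a chemokine that attracts neutrophils, read −1.64 and −1.35 in AL and −2.16 and −2.36 in CR (difference −0.76, adjusted p = 0.159). Clec7a, the receptor dectin-1, read −0.95 and −1.13 in AL and −1.50 and −1.42 in CR (difference −0.42, adjusted p = 0.170). Both separated the diets. Ccl11 had a difference of −0.40 with 2 of its 4 arrays not well above background, Tlr7 of −0.24, Gbp4 of −0.21, Ccl8 of −0.13, Osm of −0.09 and Tlr2 of −0.02, while Ifit2 had 0.05 and Clec4e 0.08. The summed ratio was 9.32 and 8.57 in AL and 7.81 and 7.68 in CR. The macrophage list was lower in the same mice, as given above, and its part was not tested. Clec4e, Clec7a, Tlr2 and Tlr7 belong to both lists.

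All 5 morphogenesis genes were lower (median −0.26, and −0.72 with the scanner-processed signals), with 0 called by limma and 3 at an unadjusted p under 0.05. Creg1, a secreted glycoprotein, read 0.03 and −0.40 in AL and −0.69 and −1.04 in CR (difference −0.68, adjusted p = 0.243). Krt17, a keratin, read 0.10 and 0.17 in AL and −0.15 and −0.10 in CR (difference −0.26, adjusted p = 0.118). Krt17 was called only with the scanner-processed signals and the deposited values, and ran to −0.79 over the alternatives. Ccn3 was called in 4 alternatives. The remaining members were Ccn3, described above, Osm and Esm1, a proteoglycan of endothelium, at −0.05. The diets were apart for Creg1, Krt17 and Ccn3 and overlapped for Osm and Esm1.

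Of the 8 ion transport genes 6 were higher (median 0.31, and 0.63 with the scanner-processed signals), with Col26a1 called and 4 higher and 0 lower at an unadjusted p under 0.05. Grin2b, a subunit of the NMDA receptor, read 0.73 and 0.85 in AL and 2.06 and 2.53 in CR (difference 1.5, adjusted p = 0.215). At 16 months its mice read 0.83 and 2.23 in AL and 1.87 and 0.84 in CR, 1 high and 1 low on each diet. Kcnu1, the potassium channel of sperm, read 2.24 and 1.97 in AL and 2.47 and 2.51 in CR (difference 0.38, adjusted p = 0.248). Sytl1, a synaptotagmin-like protein, read −0.24 and −0.20 in AL and 0.20 and 0.27 in CR (difference 0.45, adjusted p = 0.159). It was called only with the scanner-processed signals and the deposited values. The diets did not overlap for any of these 3. Kcnn3 had a difference of 0.24, Chrna9 of 0.04, Catsper4, part of the sperm calcium channel, of −0.0042 and Kcnn2 of −0.15.

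Of the 7 genes of carboxylic acid metabolism 6 were higher (median 0.10; 0.064 without replicate 1 of CR and 0.33 with the scanner-processed signals), with 0 called by limma and 2 higher and 0 lower at an unadjusted p under 0.05. Cpt1b, which loads fatty acids for import into mitochondria, read 2.14 and 2.08 in AL and 2.80 and 2.73 in CR (difference 0.66, adjusted p = 0.163). Gls2, a glutaminase, read −1.16 and −1.19 in AL and −0.67 and −0.62 in CR (difference 0.53, adjusted p = 0.170). For both, the mice of a diet were close together and the diets apart. Pdgfd had a difference of 0.28, Acot12 of 0.10, Tdo2 of 0.06, Pmel of 0.02 and Folh1 of −0.06. Of these, Pdgfd was called only with the scanner-processed signals and the deposited values, and ran to 0.70. Values of fat cell genes are given above, with 0 of 15 at an unadjusted p under 0.05, and their part was not tested.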

How the data were processed

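Two-colour arrays of 28 gonads were deposited as scanner output, and 14 testis arrays were used. Per the file headers, the authors extracted them with Agilent Feature Extraction, and the deposited spot intensities are mean foreground and local background on a linear scale. The log10 values deposited by the authors were, for 98% of 25,577 probes compared, the log10 ratio of the scanner-processed channels plus a constant of the probe (range over arrays up to 0.01), and served only as an alternative; 6 ovary columns of the deposited series table were not used. Here spots were background-corrected (normexp, offset 50), loess-normalised within arrays and expressed as log2 testis over reference in limma 3.58.1 (R 4.3.3, package data.table, version 1.17.8). Of 42,006 probes 17,679 were named, 5851 from the study's supplement and 11,828 through RefSeq accessions; the probe with the brightest mean Cy3 stood for each gene. Groups by diet and age, taken from the titles, were fitted over 14 arrays with 1 mean each and moderated variances, and p-values were adjusted by Benjamini and Hochberg over all features. The 2 mice of a group are separate animals.

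Named genes were the 15 largest called differences on each side at 24 months, filled with the lowest unadjusted p at 1.5-fold, called and 4 brightest members of each list, all members of the lists chosen by the study, and up to 10 called genes a side of the contrast of 24 with 16 months. Members and lists were chosen with earlier results of these data known. Alternatives covered the signal, probe, arrays, variance and left-out mice. The steps were tested on simulated data.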

Additional observations from a re-analysis of the deposited data

Results flagged for a closer look

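The diet difference at 24 months differed from that at 16 months by limma's interaction contrast for 13 features, at a false discovery rate of at most 0.1 and 1.5-fold. In log2 units it was 4.20 for Srfbp1, 3.39 for Defa29, 2.65 for 1600014C10Rik, 2.12 for Sirt2, 1.94 for Defb14, 1.30 for Depdc1b and 0.93 for Shkbp1. Defb15 went the other way, at −1.75. For these 8 genes the diet that read higher at 24 months read lower at 16 months. The corresponding contrast with 6 months was called for 22 features. Srfbp1, Defa29, 1600014C10Rik, Sirt2 and Defb14 were low in both AL mice of 24 months and both CR mice of 16 months. D130007C19Rik and Grin2b were at 1 of 2 levels in single mice of 16 months. Replicate 1 of AL and replicate 2 of CR were the low mice of that age, as also for Mob3b, C330013J06Rik, 1700024I08Rik and Cmya5. The mice of each age differ, the labels give no substrain, and what underlies these differences was not tested.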

How the results depend on the processing

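Among 4303 values of 185 named genes over the alternatives, 148 lost the call and 71 gained it, in none of them with a change of sign. Of the rest, 124 uncalled values moved from the main one by more than the larger SD between mice of a group, and 3960 either kept the call or, uncalled, moved by less. Uncalled differences changed sign in 144 values of 67 genes, as for Catsper2 (−0.085 to 0.039). The 12 called genes kept their direction in every alternative run; none of them was called in all. Srfbp1 was called in 19 of 23, 1600014C10Rik in 18 of 22, Sirt2 in 13 of 23, Zbtb7a in 12 of 23, Defa29 and Defb14 in 10 of 23, 1700037N05Rik in 10 of 24, Col26a1, Hoxa4 and 4933436H12Rik in 9 of 24, 4933431G14Rik in 6 of 24 and Zfr in 6 of 22. Called features at 24 months (18, of which 12 named) became 440 (210 named) with scanner-processed signals, 269 (194) with deposited values, 8 (5) with Cy3 alone, 5 (3) on 12 arrays of 6 months and later, 1 (1) on 4 arrays, and 6 (5) without features of opposite diet change at another age. The 1 on 4 arrays was D130007C19Rik, which is not among the 12. With the deposited values 24,329 features were tested, against 38,994 with the scanner-processed signals, so that these 2 counts are not on the same base. Leaving out features of opposite change removed calls, with the same 38,994 features tested. With the methods' ANOVA variance in place of limma's moderated one the called features became 0 (0), with 217 at an unadjusted p under 0.05 and 1.5-fold. Scanner-processed signals gave 31 for diet at 16 months, 311 for 24 against 6 months of the diet difference and 6 for age on CR. For 24 against 16 months of the diet difference, deposited values gave 25 of 24,329 features tested and the ANOVA variance 1. The cause was not tested.

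Leaving out 1 array gave 3 to 306 features at 24 months (0 to 173 named), 1 to 346 at 6 months, 0 to 20 at 16 months, 5 to 251 and 0 to 659 for the diet difference against 16 and against 6 months, 1 to 68 for age on CR and 0 to 13 for age on AL. The lists under the median of all named genes (24) numbered 20 to 23 without 1 array of 24 months, 21 with scanner-processed signals and 28 with Cy3 alone. Leaving out arrays for age and for lists was added after the data were seen. A lone mouse is assumed to vary like the other groups.

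No paired analysis was possible because titles carry no replicate numbers and no animal is in more than 1 group. Diet, extraction day, time since feeding and the 22-month age label cannot be told apart at 24 months.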
